A study of Mus musculus with 2 samples.

Results

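The Mir7 genes and Mir671 encode the microRNAs that act on Cdr1as, a circular RNA of neurons transcribed opposite the Cdr1 gene. The set holds 4 genes, Mir7b, Mir7-2, Mir7-1 and Mir671, chosen by name, of 2202 microRNA genes that were counted. They were measured in hippocampus of female B6CASTF1/J mice, first-generation hybrids of C57BL/6J and CAST, at 10 days of age. There is 1 group of 2 libraries, replicates 1 and 2, and each label names its own set of 3 females under a shared donor entry. No treatment, mutant or transgene is named, so no comparison of conditions exists. Small RNA below 30 nt was sequenced, and the levels below describe whole tissue, in which fewer cells of a type and less RNA per cell cannot be told apart.

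As background, miR-7 lowers its target mRNAs through pairing of its seed, bases 2 to 8 from its 5' end. Cdr1as carries many matches to that seed and holds miR-7 in neurons without being cut by it. miR-671-5p pairs along most of its length with a place in Cdr1as, and Argonaute 2 then slices the circle there. The long non-coding RNA Cyrano is known to trigger the destruction of miR-7. Cdr1as and Cyrano are long RNAs and were not measured in these libraries.

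The mature sequences show which genes could be told apart by reads of exact sequence. They are from RefSeq on GRCm38.p6, written 5' to 3' with the seed in capitals, and all 4 genes matched an entry by symbol.
miR-7b-5p: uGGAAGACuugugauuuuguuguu
miR-7a-5p: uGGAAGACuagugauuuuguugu
miR-671-5p: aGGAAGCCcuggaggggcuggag
miR-7b-3p: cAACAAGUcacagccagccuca
miR-7a-2-3p: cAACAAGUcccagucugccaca
miR-7a-1-3p: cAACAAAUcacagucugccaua
miR-671-3p: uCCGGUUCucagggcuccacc
Mir7-1 and Mir7-2 give the same 23 nt 5p form, miR-7a-5p. Mir7b gives miR-7b-5p, listed at 24 nt, which differs from miR-7a-5p by A10U over the first 23 bases (miR-7a-5p first, counted from the 5' end). The seed GGAAGAC was listed for these 3 genes and no other mouse gene of the table. The first 8 bases of miR-7a-5p and miR-671-5p differ by U1A and A7C, so the seeds are 1 base apart. The 3p forms all differ. miR-7a-1-3p and miR-7a-2-3p differ by A7G, A10C and U21C, and miR-7a-2-3p and miR-7b-3p share the seed AACAAGU.

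The 2 hairpins that give miR-7a-5p are shown because a read within their shared stretch has no single place. The stretch that Mir7-2 and Mir7-1 have in common is in capitals.
Mir7-2: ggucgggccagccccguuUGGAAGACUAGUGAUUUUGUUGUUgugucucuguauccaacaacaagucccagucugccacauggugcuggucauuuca
Mir7-1: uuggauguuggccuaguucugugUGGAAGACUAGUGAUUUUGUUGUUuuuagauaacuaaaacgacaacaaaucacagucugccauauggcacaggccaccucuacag
The stretch was 24 nt long and held the whole of miR-7a-5p and 1 further base. A read within it fits both genes and could not be assigned to either by sequence. The longest stretch that Mir7b shared with another microRNA gene was 14 nt, and that of Mir671 was 13 nt, with either strand searched. No window of 18 nt in these hairpins occurred in another microRNA gene, against 7 of 80 such windows in Mir7-2 and 7 of 91 in Mir7-1. Only exact matches in microRNA genes were searched, and the rest of the genome was not. Reads that fit more than 1 place were assigned to no gene in these files, and they made up 43.2% of the reads of replicate 1 and 39.3% of those of replicate 2. How many of those were miR-7a-5p is not given by the files, so the values of Mir7-2 and Mir7-1 cover reads with a single place, such as reads of the 3p forms or reads past the stretch. The files count each hairpin as a whole and do not separate 5p from 3p reads.

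**Figure D1:**
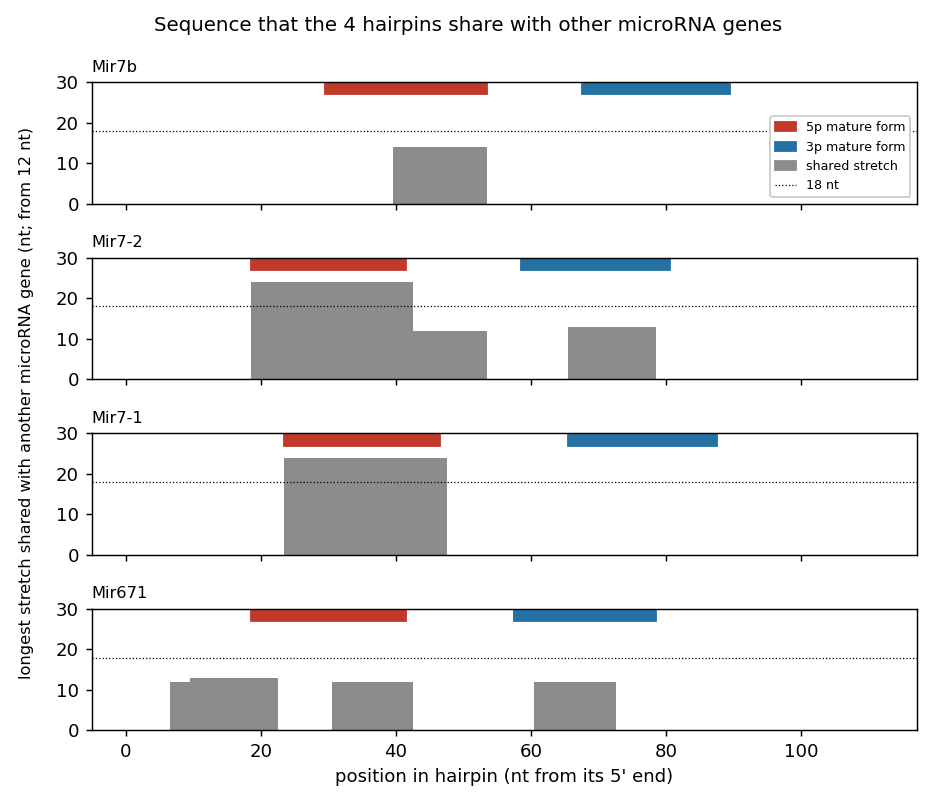
For each hairpin, position from its 5' end (nt) is plotted against the length (nt) of the longest stretch covering that base that also occurs in another microRNA gene, with red and blue bars for the 5p and 3p mature forms. Stretches above the dotted line at 18 nt cover the 5p form of Mir7-2 and Mir7-1, both 24 nt long, and none of Mir7b or Mir671.

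The genes lie in different kinds of locus. Coordinates are those of GRCm38 (mm10) in GENCODE M21. Mir7b (ENSMUSG00000065491.1, chr17:56242988-56243098, plus strand) overlaps no other annotated gene and starts 183 nt past the end of the lincRNA AC026385.1. Mir7-2 (ENSMUSG00000065609.1, chr7:78888277-78888373, plus strand) is intergenic as well, 7481 nt before Aen. Mir7-1 (ENSMUSG00000065434.1, chr13:58392779-58392886, minus strand) lies in an intron of Hnrnpk, which encodes a widely expressed RNA-binding protein, on the same strand. Mir671 (ENSMUSG00000076387.1, chr5:24592114-24592211, plus strand) lies within a coding exon of Chpf2, a chondroitin synthesis gene, and opposite a retained-intron transcript of Smarcd3, which encodes a chromatin remodelling subunit. No other microRNA gene was annotated within 10 kb of any of them.

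Mir7b, known in mouse brain from the hypothalamus, where it lowers Fos, was the most abundant of the set in reads with a single place. It had 12169 sense counts in replicate 1 and 9318 in replicate 2, of 5479267 and 3563226 sense counts on microRNA genes. That was 2221 and 2615 counts per 1000000 of these sense counts (CPM), with a mean of 2418 ± 279 CPM (SD, n = 2). Both libraries held it at a similar place, rank 74 and rank 68 of 429 detected genes, those with at least 10 counts in each library.

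Mir671, the source of the microRNA that directs slicing of Cdr1as, came next. It had 7325 and 4695 sense counts in replicates 1 and 2, or 1337 and 1318 CPM, with a mean of 1327 ± 13.6 CPM (SD, n = 2). It had the smallest spread of the 4, a coefficient of variation of 1.02% over 2 libraries. Its ranks were 98 and 102.

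Mir7-2, the copy needed in mouse pituitary for fertility and abundant in pancreatic islets, stood below Mir671. It had 1806 sense counts in replicate 1 and 2336 in replicate 2, although replicate 1 was sequenced more deeply. On the CPM scale that was 330 and 656, with the higher level in replicate 2, a mean of 493 ± 231 CPM (SD, n = 2). It had the widest spread of the 4, a coefficient of variation of 46.8%, and ranked 159 and 135.

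Mir7-1, the copy within Hnrnpk, was the lowest. It had 366 and 297 sense counts, or levels of 66.8 and 83.4 CPM in replicates 1 and 2, with a mean of 75.1 ± 11.7 CPM (SD, n = 2). Its ranks were 233 and 221. The order Mir7b, Mir671, Mir7-2, Mir7-1 held in both libraries, and no library of one gene overlapped a library of the next. Divided by hairpin length, the mean levels were 2178, 1354, 508 and 69.5 CPM per 100 nt in that order. The place of Mir7-2 and Mir7-1 below Mir7b and Mir671 holds for reads with a single place, and the level of miR-7a-5p was not determined.

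**Figure D2:**
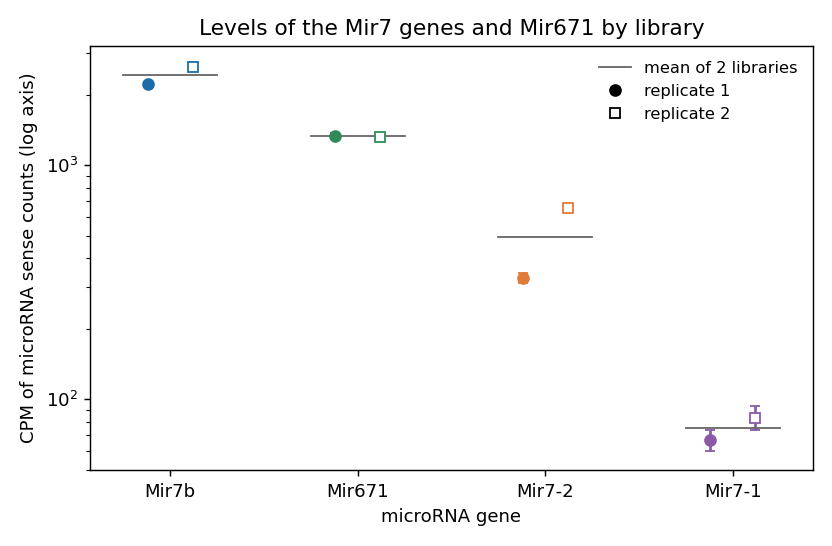
CPM of microRNA sense counts (log axis) for each gene, with filled circles for replicate 1, open squares for replicate 2, bars for exact 95% counting intervals and lines for the mean of 2 libraries. Levels run from 66.8 CPM for Mir7-1 to 2615 CPM for Mir7b, and Mir7-2 shows the widest gap between the libraries.

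Together the 3 Mir7 genes held 2617 and 3354 CPM in replicates 1 and 2. These sums and the shares below leave out the miR-7a-5p reads that fit both Mir7-2 and Mir7-1, so they divide assigned reads and not the miR-7 of the tissue. Mir7b made up most of the assigned counts, 84.9% in replicate 1 (exact Clopper-Pearson 95% interval 84.3 to 85.4) and 78.0% in replicate 2 (77.2 to 78.7). Its share of the Mir7 counts was higher in replicate 1 than in replicate 2 (two-sided Fisher's exact test over 14341 and 11951 reads, p = 1.15e-46), which compares these 2 libraries and not conditions. Mir7-2 held 12.6% in replicate 1 and 19.5% in replicate 2, and Mir7-1 held 2.55% and 2.49%. These shares do not depend on how the libraries are scaled. Mir7b exceeded Mir7-1 33.2-fold in replicate 1 and 31.4-fold in replicate 2, while Mir7-2 exceeded Mir7-1 4.93-fold and 7.87-fold, in assigned reads. Between the libraries the shares of Mir7b and Mir7-2 differed, and the share of Mir7-1 stayed within its counting interval (2.30% to 2.82% in replicate 1 and 2.21% to 2.78% in replicate 2). As intervals and tests of reads, these cover counting error alone.

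**Figure D3:**
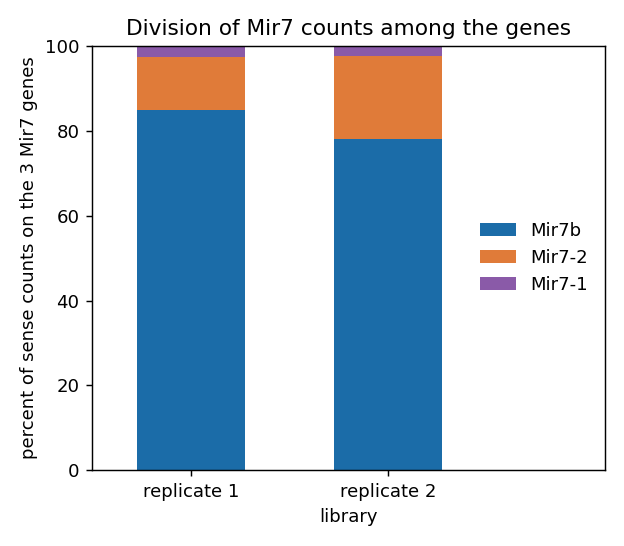
Stacked bars give the percent of sense counts on the 3 Mir7 genes that fell on Mir7b, Mir7-2 and Mir7-1 in each library. Mir7b takes 84.9% in replicate 1 and 78.0% in replicate 2, and Mir7-2 takes 12.6% and 19.5%, with miR-7a-5p reads that fit both Mir7-2 and Mir7-1 left out.

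The libraries were compared gene by gene with a two-sided exact binomial test on TMM-scaled counts, adjusted by Benjamini-Hochberg over all 429 detected genes. All 4 genes passed at an adjusted p of 0.05. Of all detected genes 61.3% passed, so passing is no particular property of the set. Passing depends on depth: with a minimum of 100 counts in each library, which all 4 met, 221 of 267 genes passed. Of the 4, 3 were lower in replicate 1, where 28.7% of detected genes were called lower, and 1 was higher, where 32.6% were called higher. Mir7-2 differed most: its log2 ratio, replicate 1 over replicate 2, was -0.93, with an adjusted p of 3.24e-94 in the exact test. The ratio was larger in size than that of 85.5% of detected genes. For Mir7b the log2 ratio was -0.17, with an adjusted p of 8.14e-18 in the exact test. For Mir7-1 it was -0.26, with an adjusted p of 0.0395 in the exact test, a call lost when genes with 1 count in each library were also tested (adjusted p = 0.0555). Mir671 was slightly higher in replicate 1, at 0.08 on the log2 scale with an adjusted p of 0.00433 in the exact test, and was not called when libraries were scaled by their totals, at 0.02 (adjusted p = 0.525), or when counts were made without regard to strand, at 0.055 (adjusted p = 0.0688). The median size of the log2 ratio over all detected genes was 0.33, which the ratios of Mir7b, Mir7-1 and Mir671 did not reach. The 3 Mir7 genes were lower in replicate 1 under TMM factors, DESeq2 size factors and library totals.

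**Figure D4:**
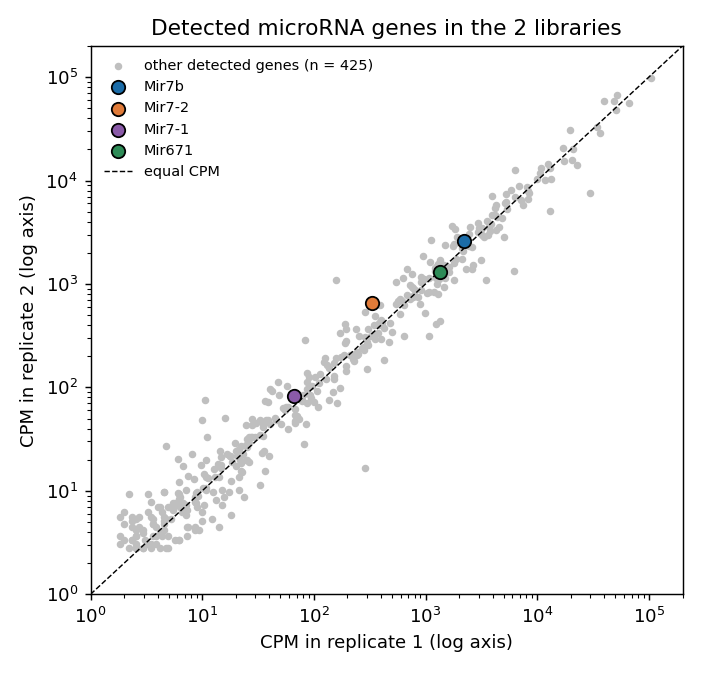
Each detected gene is plotted by CPM in replicate 1 and CPM in replicate 2 (both log axes), with the dashed line at equal CPM and the 4 genes in colour. Mir7b, Mir7-1 and Mir671 lie close to the line, and Mir7-2 lies above it, with 330 CPM on the horizontal axis and 656 CPM on the vertical axis.

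The marker lists of cell types gave these values beside the difference in Mir7-2. Neuron microRNAs, 10 of 12 detected and none at 0, summed to 2.71% of sense counts in replicate 1 and 2.97% in replicate 2. Of these 9 were called, 4 higher and 5 lower in replicate 1. The shares over all detected genes were 61.3%, 32.6% and 28.7%. With a minimum of 100 counts in each library, 221 of 267 genes were called. Mir132 had 8514 and 7545 CPM and Mir138-1 had 4296 and 5752 CPM. In reads with a single place, the means of Mir124a-1, Mir124a-2, Mir124a-3 and Mir9-2 were low, at 3.72, 0.877, 1.52 and 3.19 CPM. Those of Mir9-1 and Mir9-3 were 16.1 and 58.3 CPM. The Mir124a and Mir9 genes have copies at several loci, and reads that fit more than 1 place were assigned to no gene. The neuron sum leaves such reads out as well, so the levels of miR-124 and miR-9 were not determined. Oligodendrocyte microRNAs, 3 of 3 detected, summed to 0.156% and 0.204%, and Mir219a-2 was the called member, with 760 and 1248 CPM. The others did not share that difference, with Mir338 at 783 and 776 CPM and Mir219a-1 at 20.1 and 17.4 CPM. Those of microglia and blood, 3 of 3 detected, summed to 0.00739% and 0.00943%, with Mir142 lower in replicate 1, at 28.1 and 49.1 CPM, and Mir223 higher, at 18.1 and 12.3 CPM. Astrocyte microRNAs, 2 of 2 detected, summed to 0.230% and 0.232%, but the members differed in opposite directions. Mir21a had 1354 and 441 CPM and Mir29a 943 and 1874 CPM. The endothelial Mir126a summed to 0.830% and 0.799%, and choroid plexus and ependyma microRNAs, 2 of 3 detected, to 0.343% and 0.328%. Mir204 was lower in replicate 1, at 1297 and 1557 CPM, and Mir449a higher, at 2135 and 1726 CPM. The part of these cell types in the result was not tested.

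All reads on the 4 genes were on the sense strand. The antisense count was 0 for each gene in each library, which allows an antisense share of up to 0.0247% for Mir7b in replicate 1 and up to 1.01% for Mir7-1 in replicate 2. Counts made without regard to strand equalled the sense counts for all 4, as no microRNA gene is annotated opposite them. How many other microRNA genes had an antisense count of 0 was not examined, so this is no particular property of the set.

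Seed matches in the annotated exon opposite Cdr1 show how the 2 kinds of microRNA differ toward their shared target. Exon 6 of the lincRNA transcript C230004F18Rik-206 (chrX:61183248-61186174, plus strand, 2927 nt) spans Cdr1, which lies on the minus strand at 61184005 to 61185558. The ends of the circle are not annotated in GENCODE M21, so the exon is described here and not Cdr1as itself. Its sequence held GTCTTCC, the complement of the miR-7 seed, 123 times on its own strand and 0 times on the other. Neighbouring matches most often started 18 nt apart, which was the gap for 86 pairs. The same letters occurred in 23.9% of 25516 other GENCODE transcripts, in the first 2927 nt of each, at most 4 times in one of them. GGCTTCC, the complement of the miR-671-5p seed, occurred 1 time in the exon and 0 times on the opposite strand, and in 29.3% of the other transcripts. GAACCGG, for miR-671-3p, had 0 matches on either strand, against 8.51% of the other transcripts with a match. No GTCTTCC match overlapped the GGCTTCC match.

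**Figure D5:**
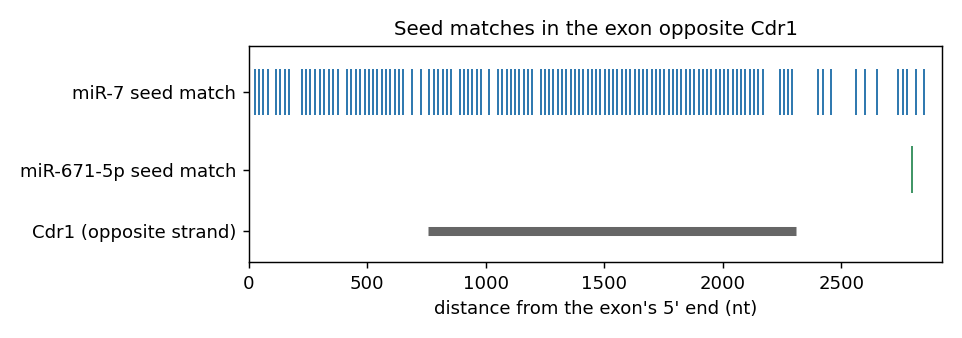
Ticks mark the start of each seed match by its distance from the exon's 5' end (nt), with the extent of Cdr1 on the opposite strand in grey. The 123 miR-7 matches run along the exon, and the 1 miR-671-5p match lies near its 3' end.

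The sites below show the exon's pairing with the whole microRNA, written 5' to 3' on the plus strand with the seed match in capitals. They are the miR-671-5p match, the miR-7 match with the most bases complementary to miR-7a-5p, and the most frequent miR-7 site, and they come from GENCODE M21 transcript sequence.
miR-671-5p match, chrX:61186029-61186051: ttccagcatctccagGGCTTCCa
miR-7 match with the most pairing, chrX:61183571-61183593: tccagaaaaatccaaGTCTTCCa
most frequent miR-7 site, chrX:61184356-61184378: ttcccgaaaatccaaGTCTTCCc
Throughout, pairs of G with U were counted as not complementary. The miR-671-5p match was complementary at 19 of 23 bases, all but bases 1, 15, 16 and 23 of the microRNA, and so at all of bases 9 to 12. The 123 miR-7 sites were complementary to miR-7a-5p at 8 to 16 of 23 bases, with a median of 13, and to miR-7b-5p at 9 to 17 of 24 bases, with a median of 14. No miR-7 site was complementary at all of bases 9 to 12, for either form. The most frequent site occurred 19 times letter for letter. The base that separates the 2 miR-7 forms, base 10, lies within that stretch. Opposite it the exon had A at 102 of the 123 sites, which is complementary to the U of miR-7b-5p, and T at 2 sites, complementary to the A of miR-7a-5p. The remaining sites had G at 15 and C at 4. The sites are repeats of one another and not independent, and a match of letters is a description and shows no binding.

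The microRNA genes nearest in level were found by the distance of log2(CPM + 1) over the 2 libraries, and nearness in 2 libraries says nothing of shared control. Nearest to Mir7b were Mir760 at 2336 CPM, Mir484 at 2304 CPM and Mir98 at 2379 CPM, each a mean. Mir34c was nearest to Mir671 at 1349 CPM, followed by Mir300 and Mirlet7f-2. Nearest to Mir7-2 were Mir500 and Mir212, a microRNA induced by neuronal activity, which had 285 and 534 CPM in replicates 1 and 2, and then Mir350. Mir101a was nearest to Mir7-1 at 66.6 and 85.9 CPM, followed by Mir3093 and Mir467c.

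Mir375, found with miR-7 in neuroendocrine cells, had 386 and 418 CPM in replicates 1 and 2 (exact binomial test, adjusted p = 0.365). Its mean was 402 ± 22.6 CPM (SD, n = 2). In reads with a single place, Mir375 lay above Mir7-1 in both libraries, above Mir7-2 in replicate 1 and below Mir7-2 in replicate 2. The values of Mir7-2 and Mir7-1 leave out the miR-7a-5p reads that fit both.

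Mir7-2 and Mir7-1 were also read beside other genes with copies. Of 1018 genes matched to RefSeq by symbol, 94 had a mature form that is listed for another gene too, and 47 of those were detected, Mir7-2 and Mir7-1 among them. The median level of the 47 was 65.4 CPM, against 111 CPM for 338 detected genes whose mature forms are listed once. Reads that fit more than 1 copy were assigned to no gene. The levels of genes with copies therefore cover reads with a single place, and the 2 medians are not like measures. Of the 47, 32 lay below Mir7-2, with Mir7-1 among them, and 24 below Mir7-1. In a list of 14 brain microRNA genes with copies at several loci, 12 were detected and 10 were called, 3 higher and 7 lower in replicate 1. Over all detected genes 61.3% were called, 32.6% higher and 28.7% lower, and 221 of 267 were called with a minimum of 100 counts in each library. The median size of the log2 ratio was 0.52 in this list and 0.33 over all detected genes, a difference that was not tested. The gene Mir129-2, with 683 and 1400 CPM in replicates 1 and 2, had a ratio close in size to that of Mir7-2, -0.97 on the log2 scale (adjusted p = 1.89e-215 in the exact test). Its copy Mir129-1 had one of -0.85 (adjusted p = 4.12e-45 in the exact test), whereas Mir7-1 had a smaller ratio than its copy Mir7-2. The differences between copies were not tested.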

How the data were processed

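The authors deposited whole-number read counts for each microRNA gene, 1 file per library, made on mm10 with GENCODE M21, per the notes deposited with each sample. The aligner is not given in the sources used here, nor are the counting program and the read filters. Of the 2 strand columns, the one with the larger total over gene rows was taken as sense. The 4 rows without a gene entered neither library sizes nor tests. They hold 43.2% and 39.3% of reads with several places, 14.2% and 18.0% unmapped, and 6.16% and 5.17% outside microRNA genes, for replicates 1 and 2. Sense counts were divided by their library total of 5479267 or 3563226 and multiplied by 1000000 (CPM). A count of 0 allows up to 0.548 and 0.842 CPM, at 3 counts. The build mm10 is that of C57BL/6J, and CAST alleles were not examined.

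The libraries were compared with exact binomial tests (scipy 1.17.1) on counts scaled with TMM factors 0.979 and 1.02 (edgeR 4.0.16). Ratios add 0.5 counts. DESeq2 1.42.0 gave alternative size factors. They are not copies of 1 library, with a chi-square of 520 per gene. p-values compare these 2 libraries and measure counting error, which PCR copies without molecular identifiers understate. Tested on counts simulated from these libraries with counting error alone, the test recovered 85.1% of 175 genes changed 2-fold and called 1.54% of those left unchanged, among 434. Symbols came from GENCODE M21, and mature forms from RefSeq (GRCm38.p6). Named genes are the 4 members, the 3 nearest in level to each, list genes and any gene that shares a seed or lies within 10 kb. A planned list of 3 genes is not reported here. The members and lists were chosen with earlier results of these data known. Alternatives were other size factors, count minimums, strand, pseudocount, denominators, hairpin length and each library alone.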

Additional observations from a re-analysis of the deposited data

How the results depend on the processing

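Of 42 values recomputed under the alternatives other than leaving out a library, 34 were taken as unchanged, and none reversed. Among the 34, ratios kept their direction and call, and levels and the Mir7b share moved by less than the spread between libraries. Ranks among the 4 genes stayed equal. Numbers of genes called, from 221 to 286 against 263, were also taken as unchanged. Some of the 34 values could not move. A count minimum leaves the ratio of a gene as it is, and the pseudocount leaves its adjusted p as it is. The strand setting leaves the Mir7b share as it is. The 34 are therefore not a count of independent checks. Leaving out 1 of 2 libraries gives the value of the other, which is no check of stability. The log2 ratio of Mir7-1 stayed at -0.26 and lost its call with a minimum of 1 count in each library (adjusted p = 0.0555, against 0.0395), where more genes are tested; its adjusted p ran from 0.0088 to 0.0555 over the alternatives. The log2 ratio of Mir671 lost its call with library totals, at 0.021, and with counts made without regard to strand, at 0.055 (adjusted p = 0.0688); its adjusted p ran from 0.00133 to 0.525. Over all reads of the files in place of microRNA sense counts, the mean levels were 895 per 1000000 reads for Mir7b, 491 for Mir671, 183 for Mir7-2 and 27.8 for Mir7-1, since the denominator is larger. Without regard to strand Mir671 stood at 1411 CPM, since that total is smaller. Each library alone gave 77.97% to 84.9% for the share of Mir7b in the Mir7 counts. The order of the 4 genes was the same per nucleotide of hairpin, and the hairpins differ little in length, from 97 to 111 nt. No paired analysis was possible because there is a single group. With 2 libraries the SD itself is poorly known, and reads of miR-7a-5p that fit both Mir7-2 and Mir7-1 are in neither value.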
